A study of Pan paniscus with 11 samples.

Results

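Elastic fibre and microfibril genes were followed in cultured fibroblasts of bonobos (Pan paniscus). The 10 genes were chosen by name: ELN, FBN1, FBN2, FBLN1, FBLN2, FBLN5, MFAP4, MFAP5, LOX and LOXL1. They made up 10 of the 8226 genes that the array's annotation names singly, and were read by 12 of its 12558 non-control probe sets. ELN and FBLN1 had 2 probe sets each and the other genes 1. All 12 passed the filter on low values, which kept 7333 probe sets and 5370 genes with an intensity above 100 in at least 5 of the 11 arrays. RNA of 11 cultures was hybridised, 1 array per culture. One culture, a further one of male line 1, was collected when 50% confluent (n = 1). Male lines 1 to 5 (n = 5) came from animals aged 4, 2, 12, 17 and 19 years, and female lines 1 to 5 (n = 5) from animals aged 9, 2, 4, 20 and 20 years. These 10 lines, male line 1 among them, were grown and harvested under the study's standard conditions, and all donors were described as normal. The body site, the passage number and the density of the standard cultures are not given in the sources used here. Each line stands for 1 animal in 1 culture, so differences between animals and between cultures are measured together.

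Elastic fibres give skin, lung and large arteries their recoil. They consist of a core of elastin, cross-linked from soluble tropoelastin, laid down on a scaffold of fibrillin microfibrils. Fibulins and microfibril-associated proteins bind both components, and lysyl oxidases make the cross-links by oxidising lysine side chains. Fibroblasts and smooth muscle cells are the main makers of these proteins. Their output is strongest in development and early life, and fibrillin microfibrils also hold latent TGF-beta through its binding proteins.

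The cultures had fibroblast character. Each of the 15 fibroblast markers with a probe set exceeded the floor in every culture, and their summed intensity was 152603 in the 50% confluence culture and 131007 to 197884 in the standard lines. Markers of most other cell types were low, with a median intensity of 100 for endothelial, melanocyte and blood cell lists. It was 162 for the keratinocyte and 221 for the cartilage list. The smooth muscle list was not low, with a median intensity of 1146.5. Above the floor in all 11 cultures were 1 of 8 endothelial, 0 of 5 melanocyte, 2 of 7 blood cell, 4 of 11 keratinocyte or epithelial and 2 of 7 cartilage markers. Of the 12 smooth muscle markers, 6 were above the floor in all 11 cultures. Among these were TAGLN and ACTA2, with medians over the 10 lines of 13268 and 9717.5. MYH11, CNN1, LMOD1, MYLK and ACTG2 were above it in 8, 8, 10, 5 and 4 of the 11. MYH11 reached 6163 in the standard lines. DES, the gene of muscle desmin, was at or below the floor in all 11. Array quality was uneven. The ratio of the 3' to the 5' control probe set for ACTB was 0.669 at 50% confluence, 2.27 for male line 4 and between 0.853 and 1.44 for the remaining lines. The 18S ribosomal RNA controls gave 1508 to 2611 at 50% confluence, 146 to 313 for male line 4 and no more than 171 for the remaining lines. No 2 arrays held identical values, and r between arrays over tested probe sets was 0.870 to 0.942.

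Variation between lines came first, since it sets the scale for every other comparison. The deposited values are linear intensities in which low values had been raised to a floor, taken here as 100. A probe set binds its own target with its own strength, so intensities are compared between cultures for 1 probe set and never between genes. ELN, MFAP4 and FBN2 varied most, and FBN1 and FBLN5 least. The standard deviation (SD) of log2 intensity over the 10 lines was over 1 for 3 of the 10 genes, against 2.25% of all 5370 genes. The median SD of the 10 was 0.63, and that of all genes was 0.43.

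ELN encodes tropoelastin, the monomer of the elastic core. Its brighter probe set read 4541, 1620, 1335, 110 and 1196 in male lines 1 to 5, and 323, 2259, 1274, 1674 and 2296 in female lines 1 to 5. Male line 4 and female line 1 were far below the other 8 lines, which lay between 1196 and 4541, and the sexes overlapped. The SD was 1.54 log2, higher than that of 99.9% of all genes. Without male line 4 it was 1.03.

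The other ELN probe set read 2054, 357, 607, 1179 and 240 in male lines 1 to 5, and 100, 1593, 1187, 534 and 997 in female lines 1 to 5. Both probe sets were highest in male line 1 and low in female line 1, which was at the floor on this one. They parted in male line 4, where the brighter probe set read 110 and the other 1179. The ratio of the brighter to the other was 0.0933 there and 1.07 to 4.98 in the other lines. Male line 4 also had the highest 3' to 5' ratios of the control genes (2.27 for ACTB and 1.67 for GAPDH), and the part of RNA quality in this gap was not tested. Over the 10 lines, r between the ELN probe sets was 0.35 (permutation p = 0.314; adjusted 0.628 over the 2 genes with 2 probe sets). Spearman's rho was 0.50 (permutation p = 0.145, adjusted 0.290). Without the lines farthest from the median, male line 4 and female line 1, r was 0.72. With only male line 4 left out, a choice made after the values were seen, r was 0.87. With only female line 1 left out it was 0.09, so the agreement depends on which of these lines is kept.

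**Figure D1:**
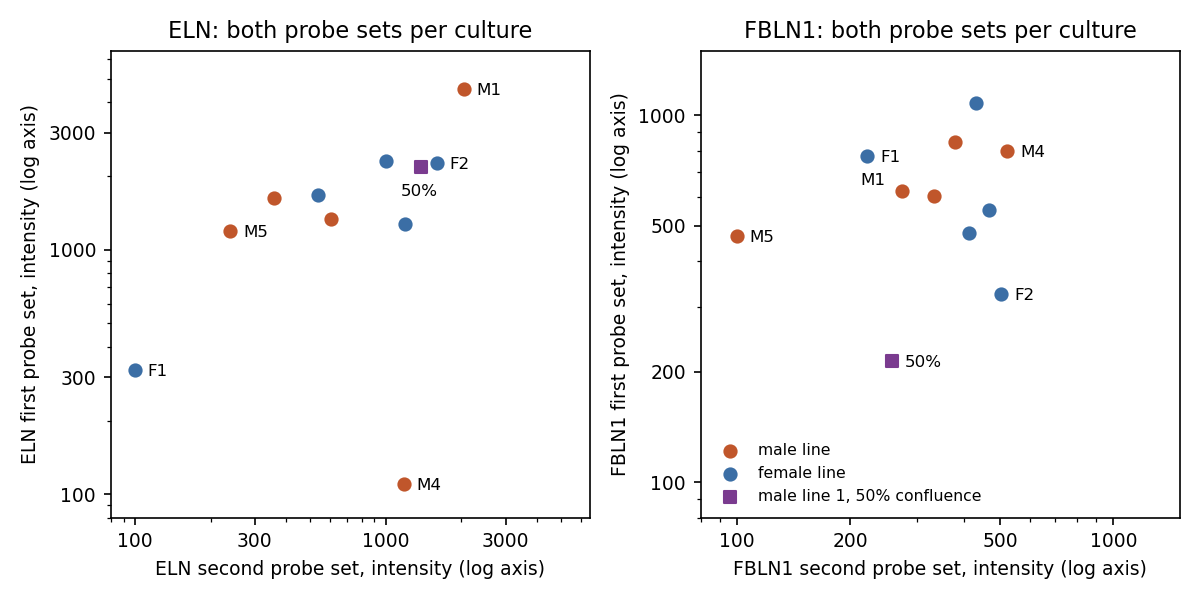
Intensity of the brighter, or first, probe set (y axis) against the other (x axis) of ELN and FBLN1 in each of the 11 cultures, both axes logarithmic, with M and F numbers naming male and female lines and 50% the 50% confluence culture. For ELN, male line 4 lies apart at 110 on the first and 1179 on the second, whereas male line 1 is highest on both (4541 and 2054). For FBLN1, male line 5 is at the floor of 100 on the second and at 470 on the first.

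The fibrillins form the microfibril. FBN1, whose product is the main fibrillin of postnatal tissue, read 3463, 2687, 2569, 3448 and 2219 in male lines 1 to 5, and 3245, 3184, 2103, 1565 and 2363 in female lines 1 to 5. It was among the steadiest members, with an SD of 0.37 and a 2.21-fold range. FBN2, the fibrillin gene best known from developing tissue, read 405, 1109, 335, 955 and 100 in male lines 1 to 5, and 238, 896, 390, 396 and 801 in female lines 1 to 5. Male lines 2 and 4 and female lines 2 and 5 read 801 or more and the other 6 lines 405 or less. Male line 5 was at the floor, and without it the SD of FBN2 was 0.80 in place of 1.07, which left 2 genes with an SD over 1.

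The fibulins bridge elastin, microfibrils and cells. FBLN5 encodes the fibulin that ties tropoelastin to microfibrils and, in mice, is required for elastic fibre assembly. It had a lowest, median and highest intensity of 561 (male line 5), 776 and 1225 (female line 1), with an SD of 0.35. FBLN2, found in elastic fibres and basement membranes, ran from 1522 in male line 4 to 4184 in male line 5 with a median of 2484. Male line 5 and female line 1 (4133) were the highest. The brighter probe set of FBLN1, a fibulin of elastic fibres and basement membranes, ran from 326 in female line 2 to 1083 in female line 4 with a median of 612. The other FBLN1 probe set ran from 100 in male line 5 to 523 in male line 4, and the order of the lines was not shared, with r = 0.11 (permutation p = 0.743, adjusted 0.743) and rho = 0.067 (permutation p = 0.865, adjusted 0.865). Without female lines 2 and 4, the farthest from the median, r was 0.36. Statements on FBLN1 below name the probe set.

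The microfibril-associated proteins decorate fibrillin. MFAP4, which binds elastin and fibrillin, read 2063, 4330, 517, 256 and 930 in male lines 1 to 5, and 1026, 1380, 626, 3191 and 428 in female lines 1 to 5. The 16.9-fold range ran within the male group, from male line 4 to male line 2, and the female group spanned 428 to 3191. MFAP5, also called MAGP2, read 409, 197, 117, 290 and 209 in male lines 1 to 5, and 742, 237, 446, 324 and 455 in female lines 1 to 5. The sexes overlapped, with female line 1 highest, male line 3 lowest and female line 2 below male lines 1 and 4.

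The lysyl oxidases cross-link elastin and collagen. LOX read 3275, 6619, 5228, 1164 and 2519 in male lines 1 to 5, and 3570, 7841, 3252, 2862 and 4101 in female lines 1 to 5. The highest values belonged to both lines from 2-year-old animals, female line 2 and male line 2, and the lowest to male line 4. LOXL1, which acts in elastic fibre renewal in adult mice, had a lowest, median and highest intensity of 2006 (female line 3), 3452 and 5044 (female line 5). Its SD was 0.46, against 0.78 for LOX.

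Lines did not rank alike across the genes. By the brighter probe set of each gene, male line 1 and female line 1 were above the median of the lines for 8 of 10 genes, and male line 2 for 7. Female line 3, male line 3 and male line 5 were above it for 2. Male line 4 was the lowest line for 4 genes (ELN, FBLN2, MFAP4 and LOX) and above the median for 4 others.

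Pairs of genes were then compared over the 10 lines, all pairs sharing the same arrays and scaling. Of 45 pairs, 26 had a positive and 19 a negative r, with a median of 0.04 against 0.01 for all pairs of tested genes. An r over 0.7 was seen in 1 pair (1.82% of all pairs of tested genes) and an r under -0.7 in 1 pair (1.66% of all). Both counts are close to those shares, and no pair passed after adjustment. The highest r was that of FBLN1, by its brighter probe set, with FBLN5 (r = 0.71, permutation p = 0.0221, adjusted 0.521 over 45 pairs; rho = 0.75, permutation p = 0.0176, adjusted 0.792). Without female lines 2 and 4, r was 0.79. The lowest was that of FBN2 with FBLN2 (r = -0.70, permutation p = 0.0232, adjusted 0.521; rho = -0.55, permutation p = 0.105, adjusted 0.957), and r was -0.81 without male lines 2 and 5. ELN and LOX had r = 0.64 (permutation p = 0.0550, adjusted 0.824) and rho = 0.49 (permutation p = 0.156, adjusted 0.957). That value rests on the extreme lines, since r was 0.10 without male line 4 and female line 1. The fibrillin genes FBN1 and FBN2 had r = 0.29 (permutation p = 0.425, adjusted 0.936) and rho = 0.36 (permutation p = 0.312, adjusted 0.957), with r = 0.41 without male line 1 and female line 4. The oxidase genes LOX and LOXL1 had an r near 0 (permutation p = 0.996, adjusted 0.996) and rho = 0.18 (permutation p = 0.634, adjusted 0.957), with r = -0.28 without male line 4 and female line 2.

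**Figure D2:**
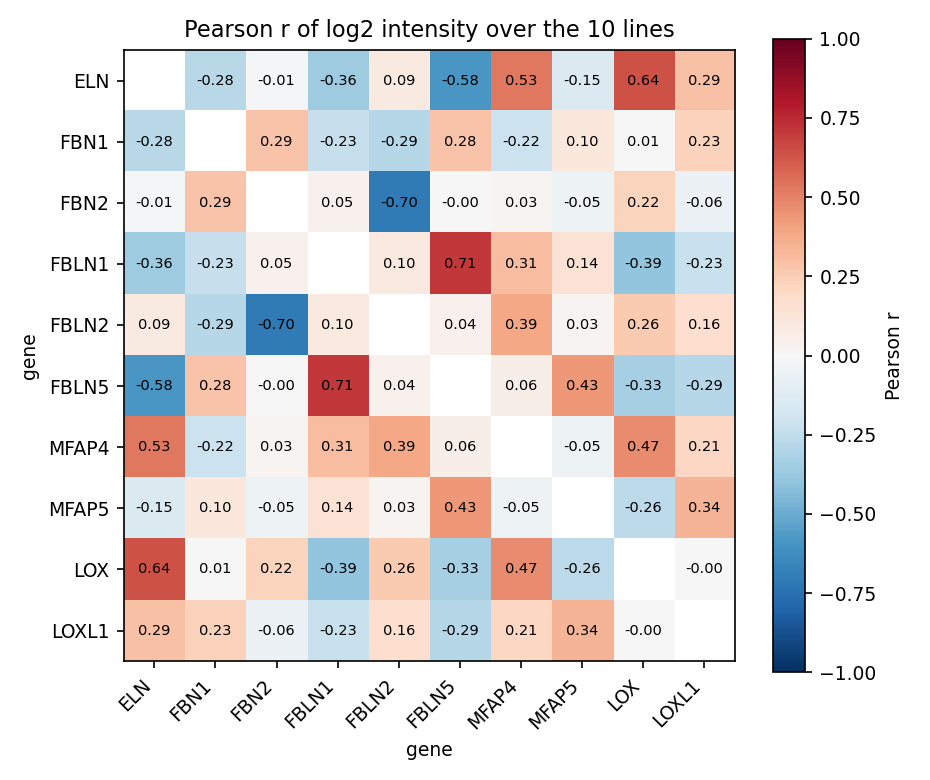
Pearson r of log2 intensity over the 10 standard lines for each pair of the 10 genes, each by its brighter probe set, with red for positive and blue for negative r. The extremes are FBLN1 with FBLN5 at 0.71 and FBN2 with FBLN2 at -0.70, and neither passed after adjustment.

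ELN had the largest SD of the 10 genes, so the genes outside the group whose pattern was most like its brighter probe set were listed. The 5 of highest r over the 10 lines were TTLL12 (0.98), the chaperone gene HYOU1 (0.96), the proteoglycan gene CSPG4 (0.96), the phosphatase gene PPP5C (0.95) and the kinase gene MAPK11 (0.93). Their rho was 0.73 to 0.93. Being the top of all tested genes outside the group, these values are high by selection. Without male line 4 and female line 1, r was 0.66 to 0.95. With the other ELN probe set, which parts from the brighter one in male line 4, r was only 0.06 to 0.37. The likeness was thus seen only with the probe set on which these genes were picked.

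Male and female lines were compared next. No elastic fibre gene passed the test of a sex difference. With limma, 0 of the 12 probe sets passed an adjusted p of 0.05 (Benjamini-Hochberg over 7333 probe sets), against 0.0273% of all probe sets tested, which were 2. At an unadjusted p under 0.05, 1 of the 12 was found, MFAP5, and 171 of all. MFAP5 averaged 244 ± 111 in male lines and 441 ± 191 in female lines (SD, n = 5 each). The male minus female difference was -0.87 ± 0.39 log2 (SE), with a 95% interval of -1.69 to -0.04 and an adjusted p of 0.99994. It was -0.92 to -0.71 under other scalings, filters and models, and -1.12 to -0.63 when single lines were left out. ELN averaged 1760 ± 1656 in male lines and 1565 ± 815 in female lines (SD, n = 5 each), and the interval of its log2 difference reached from -1.91 to 1.30. That of FBN1 was narrower, -0.24 to 0.70, with 2877 ± 555 in male lines and 2492 ± 720 in female lines. Over the 12 probe sets the difference ran from -0.87 to 0.23 with a median of -0.04, against 0.00 for all probe sets. Values of male and female lines overlapped for all 12, as for all but 0.286% of probe sets.

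Age of the animal was fitted in the same model. No member passed (0 of 12 with limma, against 0% of all probe sets), and 1 of the 12 and 251 of all had an unadjusted p under 0.05. LOX was that member. It read 1164 to 4101 (median 2691) in the 4 lines from animals of 17 years or more and 3252 to 7841 (median 4399) in the 6 lines from animals of up to 12 years. The groups overlapped. Its slope was -0.59 ± 0.24 log2 per 10 years (SE), with a 95% interval of -1.09 to -0.08 and an adjusted p of 0.999. The lowest value, 1164, was that of male line 4, the array with the highest 3' to 5' ratios (2.27 for ACTB and 1.67 for GAPDH), and without that line the slope was -0.41. The part of RNA quality in it was not tested. MFAP4 had a slope of -0.67 ± 0.43 (interval -1.59 to 0.24), -0.29 without male line 2 and -1.26 without female line 4. FBN1 had -0.22 ± 0.15 (interval -0.54 to 0.10), with 1565 to 3448 in the older and 2103 to 3463 in the younger lines, and -0.11 without female line 4. ELN had -0.58 ± 0.52 (interval -1.68 to 0.53), so that neither a fall of 1 log2 per 10 years nor a small rise lay outside its interval. In all, 9 of the 12 slopes were below 0, with a median of -0.22, against 0.00 for all probe sets. By gene, 7 of 10 were below 0, against 2698 of the 5370 genes tested, and the signs of FBLN5, MFAP5 and the other FBLN1 probe set turned under at least 1 setting. For 0 of the 12 were older and younger lines separate, against 0.614% of all probe sets.

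**Figure D3:**
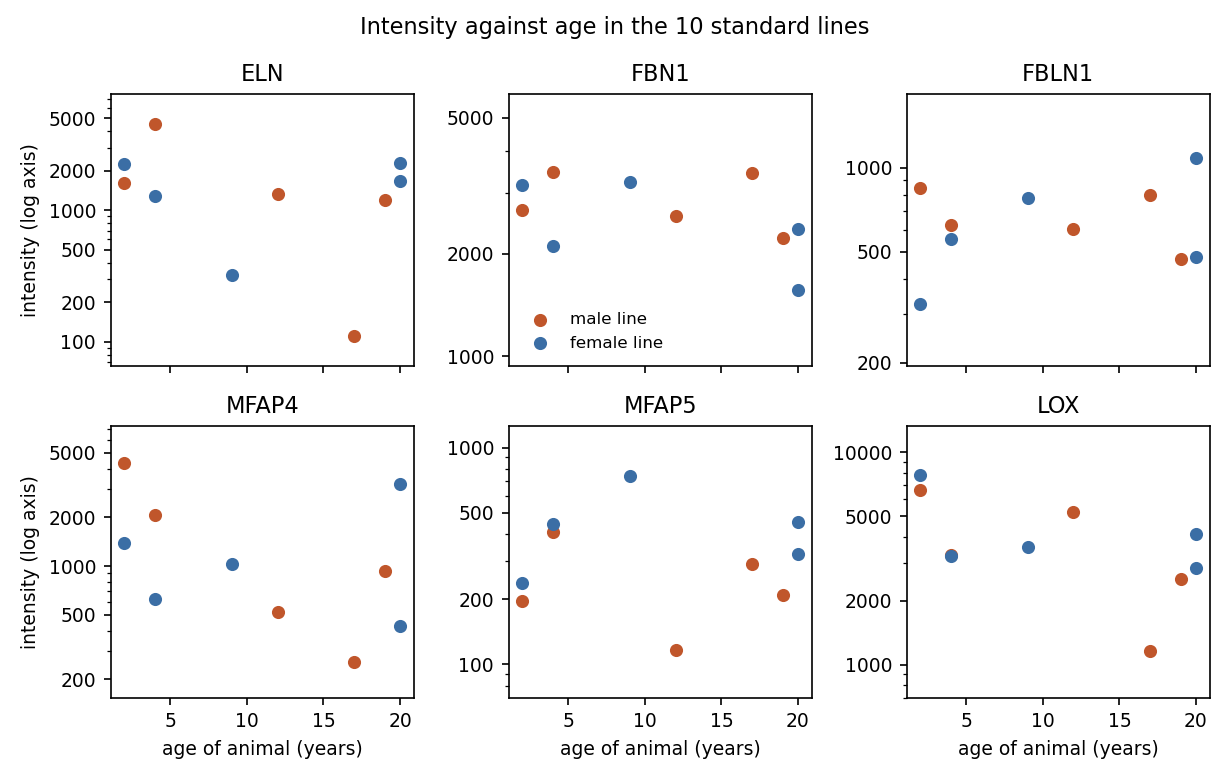
Intensity (y axis, logarithmic) of 6 genes by their brighter probe set against the age of the animal (x axis, years) in male and female lines, 1 point per line. LOX is highest in the lines from 2-year-old animals (6619 and 7841). It does not fall steadily with age, with 3275 and 3252 at 4 years and 5228 at 12 years. MFAP4 in males runs from 4330 at 2 years to 256 at 17 years and 930 at 19 years, and the sexes overlap in every panel.

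Whether the age slope differed between the sexes was tested in a further fit. No member passed (0 of 12 with limma, against 0.0136% of all probe sets, which was 1), and 1 of the 12 and 355 of all had an unadjusted p under 0.05. MFAP4, with a male minus female slope of -1.88 ± 0.73 log2 per 10 years (SE; interval -3.46 to -0.30; adjusted p = 0.973), was that member. Its slope was -1.73 in male and 0.15 in female lines (n = 5 each). Female lines 4 and 5, both from 20-year-old animals, read 3191 and 428, and without female line 4 the difference was -1.03. The brighter ELN probe set had -1.91 ± 0.95 (interval -3.95 to 0.12), but -0.96 without male line 4 and -2.99 without male line 5. The other ELN probe set had -0.13 ± 0.99 (interval -2.26 to 2.00), and its sign turned in 5 of 20 settings. The brighter FBLN1 probe set had -0.65 ± 0.41 (interval -1.53 to 0.23), and -0.37 without female line 4 or -1.05 without female line 5. The estimate was below 0 for 11 of the 12 probe sets, all fitted on the same 10 lines, with a median of -0.37 against 0.01 for all probe sets. By gene, 9 of 10 were below 0, against 2592 of the 5370 genes tested. These signs are not settled, as that of FBLN2 turned in 7 of 21 settings and those of FBLN5, MFAP5 and the other FBLN1 probe set in at least 1.

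Harvest state was compared in male line 1, the standard culture being the labels' named counterpart of the 50% confluence culture. There was 1 culture per state, so no test was possible and the values describe these cultures. Members went in opposite directions. At 50% confluence, MFAP5 and FBN1 lay above all 10 standard lines, as did LOXL1, whereas MFAP4, FBN2, the brighter FBLN1 probe set and ELN were lower than in the standard culture. Of the 9 genes above the floor in both cultures, 1 was over 2-fold higher (4.74% of all 4497 such genes) and 3 over 2-fold lower (4.67% of all). The median log2 difference was -0.47, against 0.00 for all genes. The 50% confluence culture exceeded all 10 lines for 3 of the 9 (9.98% of all genes) and lay below all 10 for 2 of the 9 (7.29% of all).

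**Figure D4:**
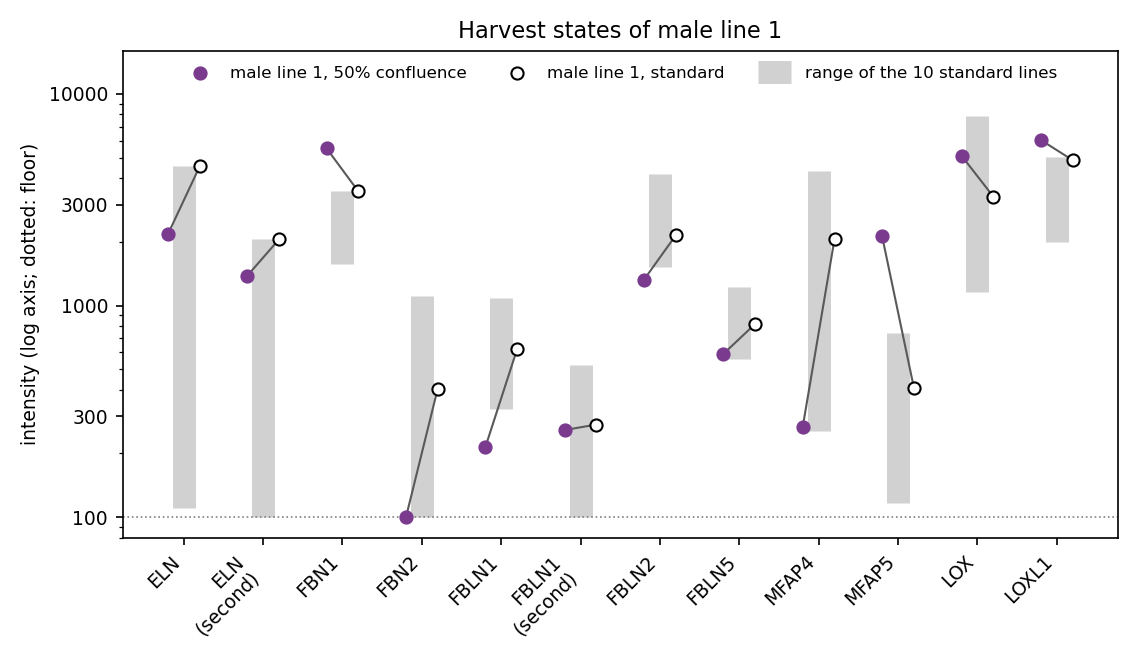
Intensity (y axis, logarithmic) of each probe set in male line 1 at 50% confluence (filled) and in its standard culture (open), with a grey bar for the range of the 10 standard lines and a dotted line at the floor. MFAP5 (2123 against 409) and FBN1 (5526 against 3463) lie above the grey bars, MFAP4 (268 against 2063) lies at the low end of its bar, and FBN2 is at the floor at 50% confluence.

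MFAP5 read 2123 at 50% confluence and 409 in the standard culture, 5.19-fold higher, and the highest of the 10 lines was 742. Of 45 pairs of standard lines, 1 differed by more. FBN1 read 5526 against 3463, 1.60-fold higher, with 3463 as the highest of the lines and 8 of 45 pairs differing by more. LOX, at 5107 against 3275, and LOXL1, at 6057 against 4865, were 1.56-fold and 1.25-fold higher. LOX stayed inside the range of the lines (1164 to 7841), and 26 of 45 line pairs for LOX and 31 for LOXL1 differed by more. FBN1, MFAP5, LOX and LOXL1 were thus the members with higher values. They were 4 of the 9 genes above the floor in both cultures, against 2245 of all 4497 such genes.

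MFAP4 read 268 at 50% confluence and 2063 in the standard culture, 7.70-fold lower, which placed it just above the lowest line (256, male line 4). Of 45 line pairs, 5 differed by more. FBN2 was at the floor at 50% confluence and at 405 in the standard culture, so it was at least 4.05-fold lower. The brighter FBLN1 probe set read 214 against 622, 2.91-fold lower and below all 10 lines (lowest 326), but the other read 258 against 274, a log2 difference of -0.09. FBLN2, at 1326 against 2150, also lay below all 10 lines (lowest 1522). FBLN5 read 591 at 50% confluence against 819, inside the range of the lines. Larger differences were seen in 16 of 45 line pairs for FBLN5, 13 for FBLN2 and, with the floor value, 5 for FBN2. For FBLN1 they were seen in 1 pair on the brighter probe set and 43 on the other. Of all 4497 genes above the floor in both cultures, 2235 were lower. All 3 fibulin genes among the members had lower values, by 1.39-fold to 2.91-fold at their brighter probe sets. Outside the group, the fibulin genes EFEMP2 (1185 against 923) and EFEMP1 (162 against 140, near the floor) were higher, so this did not hold for fibulin genes in general.

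ELN read 2172 at 50% confluence and 4541 in the standard culture on its brighter probe set, 2.09-fold lower, and 1383 against 2054 on the other, 1.49-fold lower. The standard culture of male line 1 was the highest of all lines on both, and 22 and 38 of 45 line pairs differed by more. Both values at 50% confluence lay inside the range of the lines.

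Other measures moved between these 2 arrays as well. The 18S control probe sets read 1508 to 2611 at 50% confluence and 100 in the standard culture, and the ACTB 3' to 5' ratio was 0.669 against 1.42. The lowest deposited value was 90 at 50% confluence, held by 2086 probe sets, and 100 in the standard culture. Of the 10 smooth muscle markers that passed the filter on low values, all above the floor in both, 9 were higher at 50% confluence, 4 over 2-fold (median log2 difference 0.66). Their summed intensity, over all 12 on the array, was 75896 at 50% confluence and 18947 to 85046 in the standard lines. Those over 2-fold higher were MYH11 (3997 against 874), CNN1 (1154 against 362), MYLK (537 against 207) and TPM1 (16186 against 6510). TAGLN was lower (17618 against 24068), and DES read at or below the floor in both cultures. The part of these measures in the differences above was not tested, and fewer cells making an RNA cannot be told apart from less RNA per cell.

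Genes that work with the elastic fibre were set beside the members by list. Among microfibril partners, 5 of 9 measured genes were higher and 4 lower at 50% confluence, 0 over 2-fold (median 0.00). LTBP1, a latent TGF-beta binding protein gene, read 542 against 997, EMILIN1 380 against 692, ADAMTSL2 810 against 574, and MFAP2, the close relative of MFAP5, 2518 against 3536. MFAP5 was over 2-fold higher and MFAP2 was not. EFEMP2, the gene of fibulin-4, read 1185 against 923. Among other cross-linking and processing enzymes, 5 of 6 were higher and 1 lower, 0 over 2-fold (median 0.08). LOXL2, another lysyl oxidase, read 2541 against 2493. The transglutaminase gene TGM2 was at the floor at 50% confluence and at 513 in the standard culture.

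Elastin receptors and binding proteins were higher for 5 and lower for 9 of 14 genes, 1 of them over 2-fold lower (median -0.05). That was LGALS3, the gene of galectin-3, at 342 against 695. The proteoglycan genes BGN (7853 against 14568) and HSPG2 (5930 against 3415) and the integrin gene ITGAV (766 against 455) had the next largest differences. Elastases and their inhibitors were higher for 4 and lower for 6 of 10 genes, 2 over 2-fold lower (median -0.21). The membrane metalloproteinase gene MMP14 read 1378 against 3682 and the protease inhibitor gene SLPI 143 against 307, whereas TIMP2 (4621 against 2612) and TIMP3 (13262 against 7667) were higher. MMP12, the gene of macrophage elastase, was at the floor in both cultures. ELANE, that of neutrophil elastase, was at the floor at 50% confluence and at 137 in the standard culture. Neither gene passed the filter on low values. In the TGF-beta list, 8 genes were higher and 7 lower of 15 (median 0.00). TGFB1 read 1166 against 3925 and SMAD3 274 against 631, both over 2-fold lower, and THBS1, whose product activates latent TGF-beta, 19814 against 6860, over 2-fold higher. INHBA read 157 against 281.

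None of these lists held a gene that passed the limma test by sex, age or sex by age (0 of 9, 7, 14, 10 and 16 tested genes in the order above). Their median SDs over the 10 lines were 0.51, 0.49, 0.39, 0.55 and 0.65, and within these lists TIMP3 (1.20) and TGFBI (1.16) had an SD over 1. Wide spread was also found among markers, with an SD over 1 for 3 of 10 smooth muscle genes (MYH11 1.96, ACTA2 1.25 and CNN1 1.14; median of the list 0.90) and 2 of 6 cartilage genes (COMP 1.25 and ACAN 1.05), as for 3 of the 10 elastic fibre genes. Among the marker lists, 0 of 15 fibroblast, 10 smooth muscle, 1 endothelial, 6 cartilage, 6 keratinocyte, 3 melanocyte and 3 blood cell genes tested passed any of the 3 tests. Fibroblast markers at 50% confluence were higher for 4 and lower for 11 of 15 (median -0.30), and cartilage markers higher for 4 and lower for 1 of 5, with the proteoglycan gene ACAN at 135 against 813.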

How the data were processed

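The deposited values are intensities, 1 whole number per probe set and array, covering the 12625 probe sets of a human Affymetrix array. The sources used here do not state how the authors summarised or scaled them. The deposited intensities had a lowest value of 100 in 9 arrays and 90 in male line 5 and the 50% confluence culture. Array means after trimming 2% at each end were 405 to 418, so the deposited scaling was kept. Values under 100 were set to 100 before taking log2, and 67 controls were excluded. Between 52.1% and 60.9% of probe sets were above the floor per array, and the number of arrays limits the precision. How well the human probes match bonobo transcripts was not analysed here.

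Gene names came from the platform annotation of 2016, and a gene with several probe sets was represented by that of highest mean log2, called the brighter. Lines were numbered by accession within each sex, so numbers pair nothing. An additive model of sex and age, and another with their interaction, were fitted to the 10 standard lines using limma 3.58.1 (R 4.3.3; lmFit, eBayes with intensity trend, two-sided), with Benjamini-Hochberg adjustment over all 7333 probe sets. The p-values of these fits weigh an estimate against the spread between lines. List counts took the genes that passed the filter. Correlations used 100000 permutations, two-sided (Python 3.11.15). Fits were tested on simulated data. Genes were named by rule: all members, up to 4 genes of largest change per list, and the 5 genes most like the member of largest SD. Members, lists and rule were chosen with earlier results of these data known. EFEMP1, EFEMP2, LOXL2, ELANE, MMP12, TGFBI, DES, ACAN, COMP, MYH11, ACTA2, TAGLN, CNN1, LMOD1, MYLK, TPM1 and ACTG2 were named after their values were seen.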

Additional observations from a re-analysis of the deposited data

Results flagged for a closer look

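Each probe set was examined for a line that stood apart from the others of its sex or from the other 9 lines, 36 groups of values in all, and 2 such values were found. Chance flags about 1 in 20 groups. Both concerned the dimmer probe set of FBLN1. Female line 1 read 222, and the other female lines read 414 to 504. Male line 5 read 100, the floor, and the other 9 lines read 222 to 523. On the brighter FBLN1 probe set these lines read 777 and 470, inside the range of the others.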

How the results depend on the processing

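With quantile normalization, median centring, floors at the 20th percentile (100, the same as the main floor) and the 60th (198), a pseudocount of 50, no filter, a filter on all 11 arrays, robust, weighted or trend-free variance estimates, and omission of every line in turn, 0 members passed by sex, age or sex by age. The same held for sex without age, for age without sex or as log2, and for age and sex by age with age in 2 classes. The lowest adjusted p among members when a line was left out was 0.999 by sex, 0.997 by age and 0.343 for sex by age. Of the 29 estimates with an unadjusted p of at least 0.2, some of which the report prints or counts, 20 changed sign under at least 1 setting, among them ELN by sex (2 of 21 settings). MFAP5 by sex, LOX, MFAP4 and FBN1 by age, and ELN, MFAP4 and FBLN1 by sex and age, the last by brighter probe sets, kept their sign in the settings run. When lines were left out, MFAP5 by sex ran from -1.12 to -0.63, LOX by age from -0.73 to -0.41, and MFAP4 by sex and age from -2.78 to -1.03.

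At 50% confluence, no member changed direction under 5 other scalings, floors or transforms, and 1 gene over 2-fold higher and 3 lower were counted in each. With genes above the floor in either culture, 4 were lower, FBN2 being added. These counts take each gene by its brighter probe set. On the other probe sets, ELN was 1.49-fold and FBLN1 1.06-fold lower, so neither was over 2-fold. The log2 difference of MFAP5 was 2.24 to 2.38, of MFAP4 -2.97 to -2.73, of FBN1 0.57 to 0.67, and of FBN2 -2.06 to -1.03, the last limited by the floor. Genes with an SD over 1 numbered 2 to 3 over all settings and left-out lines, with 2 under the floor of 198, the pseudocount, or without male line 5. No pair of genes passed under any setting. Scaling moved the median of all probe sets or genes by at most 0.05 log2. Low signals of FBN2 lie near the floor, which limits its folds. MFAP5 was near the floor in its lowest line (117, male line 3), but not at 50% confluence (2123) or in the standard culture of male line 1 (409).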
